A study of Mus musculus with 9 samples.

Results

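The 44 genes described here encode enzymes that add methyl groups to lysines of histone proteins, or remove them, and close relatives of these enzymes. They were chosen by name, as all genes whose symbol belongs to the Kdm, Kmt, Setd, Setdb, Nsd, Ehmt, Suv39h or Smyd series, from the 19938 genes measured. The sex-linked Kdm5c, Kdm5d and Kdm6a were left out by the same rule, and Suv39h1 had no probe set under its symbol alone and was not analysed here. The members comprise 29 methyltransferase and SET-domain genes, called writers below, and 15 demethylase genes, called erasers. They were covered by 49 probe sets, and each gene is represented by its brightest.

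RNA was measured on expression microarrays in mouse cells of 3 groups with 3 arrays each. The iPS arrays held pluripotent cells that were reprogrammed from embryonic fibroblasts. The R1 arrays held the embryonic stem cell line R1. The MEF arrays held embryonic fibroblasts below passage 3, the population from which the iPS cells were derived. In the title the iPS cells are called inducible; the labels used here state neither the reprogramming factors nor the number of iPS clones, the mouse strains or the culture layers. The labels number the arrays of a group without saying what a number stands for, so the p-values cover the spread among these samples alone, which may be technical.

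Histone lysine methylation is a chemical mark on chromatin whose effect depends on the lysine that carries it. Methylation of lysine 4 of histone H3 (H3K4) marks promoters and enhancers in use, that of H3K36 the bodies of transcribed genes, and that of H3K9, H3K27 and H4K20 silent or compacted chromatin. Most writers share a catalytic SET domain, and most erasers a JmjC domain that uses iron and oxoglutarate, while Kdm1a and Kdm1b use a flavin. In embryonic stem cells these enzymes are known for keeping genes of differentiated cells and endogenous retroviruses silent, and H3K9 methylation is known as an obstacle to reprogramming.

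The groups carried the markers of their labels. All 8 pluripotency markers were called higher and all 8 fibroblast markers lower in iPS and in R1 arrays than in MEF arrays. The summed signal of the 8 fibroblast markers was 3233 to 3912 in iPS arrays and 2173 to 3169 in R1 arrays, against 30097 to 34252 in MEF arrays, so the pluripotent cultures held a low fibroblast signal. The 12 skeletal-muscle markers summed to 1013 to 1244 in iPS arrays and 926 to 1060 in R1 arrays, against 6782 to 8160 in MEF arrays. The 4 measured proliferation markers summed to 9585 to 10105 in iPS arrays and 10018 to 10341 in R1 arrays, against 6210 to 6417 in MEF arrays. Of these 4, Mcm2 alone was called, and Mki67 had differences below 0, at -0.23 ± 0.06 in iPS and -0.10 ± 0.06 in R1 arrays. Among the germ-cell markers 3 of 4 were called higher in iPS arrays and 4 of 4 in R1 arrays than in MEF arrays, among the macrophage markers Cd68 alone and among the endothelial markers Pecam1 alone, in both, and of 6 cardiac markers Tnnt2 alone was lower in both. Whether these markers reflect separate populations of cells was not tested, nor was any part of such populations in the results below. In such bulk samples, fewer cells of a type and less RNA per cell cannot be told apart.

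Promoter sequences are shown for 5 called members with a single window in the table, 3 that were called higher than MEF in at least 1 pluripotent line (Kdm5b, Kmt5c and Kmt2c) and 2 that were called lower in both (Setd7 and Smyd1), to set the muscle gene Smyd1 beside more widely used enzymes. Each runs 5′ to 3′ on the gene's strand, from 250 bases before to 50 bases after the start, and comes from RefSeq on GRCm38.p6. Capitals mark matches, on either strand, to the GC box (GGGCGG), the CCAAT box (CCAAT), the TATA box (TATAAA), the E box (CACGTG) and the octamer bound by Oct4 (ATGCAAAT). Matches of the same motif may overlap, as they do in Kmt2c, and no motif overlapped a different motif here. The windows are those of Kdm5b at chr1:134559928-134560227 (plus strand), Kmt5c at chr7:4739877-4740176 (plus strand), Kmt2c at chr5:25498734-25499033 (minus strand), Setd7 at chr3:51560774-51561073 (minus strand) and Smyd1 at chr6:71262232-71262531 (minus strand).
Kdm5b: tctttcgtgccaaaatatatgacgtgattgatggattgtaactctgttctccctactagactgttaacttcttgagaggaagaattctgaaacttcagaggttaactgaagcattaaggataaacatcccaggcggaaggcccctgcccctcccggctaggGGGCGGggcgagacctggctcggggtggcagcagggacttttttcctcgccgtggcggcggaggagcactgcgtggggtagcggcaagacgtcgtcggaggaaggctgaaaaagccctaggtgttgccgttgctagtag
Kmt5c: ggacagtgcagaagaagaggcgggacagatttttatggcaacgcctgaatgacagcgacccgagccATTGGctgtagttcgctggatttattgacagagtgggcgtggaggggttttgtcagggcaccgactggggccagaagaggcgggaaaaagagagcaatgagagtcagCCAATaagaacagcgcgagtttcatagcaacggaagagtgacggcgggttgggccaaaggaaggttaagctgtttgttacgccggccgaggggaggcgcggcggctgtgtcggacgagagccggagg
Kmt2c: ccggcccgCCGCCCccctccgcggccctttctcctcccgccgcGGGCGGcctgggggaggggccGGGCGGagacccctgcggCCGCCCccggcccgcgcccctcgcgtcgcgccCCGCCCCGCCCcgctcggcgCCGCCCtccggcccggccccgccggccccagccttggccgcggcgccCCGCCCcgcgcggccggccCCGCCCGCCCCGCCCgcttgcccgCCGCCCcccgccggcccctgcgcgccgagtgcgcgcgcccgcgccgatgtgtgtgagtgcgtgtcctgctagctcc
Setd7: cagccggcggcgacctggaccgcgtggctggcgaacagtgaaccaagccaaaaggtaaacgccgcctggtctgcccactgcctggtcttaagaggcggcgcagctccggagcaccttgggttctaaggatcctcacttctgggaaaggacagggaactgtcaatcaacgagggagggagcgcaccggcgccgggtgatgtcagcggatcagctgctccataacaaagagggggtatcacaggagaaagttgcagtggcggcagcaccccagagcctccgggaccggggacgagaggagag
Smyd1: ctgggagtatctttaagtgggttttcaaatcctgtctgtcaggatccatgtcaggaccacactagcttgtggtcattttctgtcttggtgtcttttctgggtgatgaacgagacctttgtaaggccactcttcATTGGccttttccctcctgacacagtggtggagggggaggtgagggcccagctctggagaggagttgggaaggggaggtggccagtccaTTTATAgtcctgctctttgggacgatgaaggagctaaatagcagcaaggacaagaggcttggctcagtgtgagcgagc

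The Kmt2c window held 56 CG dinucleotides and 12 GC-box matches, while the Smyd1 window held 3 CG dinucleotides, 1 CCAAT match and a TATA match on the opposite strand. Kdm5b had 17 CG dinucleotides with 1 GC box, Kmt5c had 22 with 2 CCAAT boxes, and Setd7 had 21 and no match. Over all 32851 windows of the RefSeq table the median was 7 CG dinucleotides, 0.195% of windows had as many as Kmt2c or more, and 31.4% had as few as Smyd1 or fewer. The 43 windows of the 32 members matched by symbol had a median of 28. Member windows on 1 chromosome were left out of this set, while the set of all windows kept that chromosome. A GC box was present in 31 of the 43 windows (35.7% of all windows), a CCAAT box in 19 (37.4%), a TATA box in 1 (13.6%), an E box in 4 (7.15%) and the octamer in 0 (1.74%). The single TATA match was that of Smyd1. A match is a string of letters and not a bound site, and windows of the same gene can overlap.

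A gene was called when limma's Benjamini-Hochberg adjusted p was under 0.05 and the absolute difference in log2(signal + 16) was 1 or more, and the words "rose" and "fell" refer to such genes. Differences are on this scale, with the standard error (SE) of the fit, and signals are linear array intensities. In iPS arrays 7 of the 44 members rose and 3 fell relative to MEF, against a background of 5.08% of all 19938 genes called higher and 7.58% called lower. The risers were the erasers Kdm3a, Kdm5b, Kdm4c and Kdm2b and the writers Kmt5c, Smyd3 and Nsd1, and the members that fell were the writers Setd7, Nsd2 and Smyd1. In R1 arrays 9 members rose and 4 fell relative to MEF, where 5.56% of all genes were called higher and 7.94% lower. These were the same named genes with Setd6 and Kmt2c added to the risers and Kmt2e to those that fell. Both comparisons use the same MEF arrays and are therefore not independent of each other.

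In both directions together, 22.7% of members were called in iPS arrays (12.7% of all genes) and 29.5% in R1 arrays (13.5% of all genes). Only Kdm4d had a mean signal under 50, and among the 13944 genes at or above that level 17.9% and 19.1% were called in the comparisons of iPS and of R1 with MEF. The median difference of the 44 members was 0.29 in iPS and 0.36 in R1 arrays, beside 0.02 over all genes in each. Over genes with a mean signal of 50 or more the median was 0.04 in iPS and 0.05 in R1 arrays. Without the minimum difference, 27 members were higher and 10 lower in iPS arrays at adjusted p under 0.05 (24.8% and 23.2% of all genes), and 28 were higher and 11 lower in R1 arrays (25.9% and 23.0% of all genes). In either direction together, 48.0% and 48.9% of all genes passed that milder rule, and 64.2% and 65.3% of genes with a mean signal of 50 or more. Of the 15 erasers 4 rose and 0 fell in each comparison. At an unadjusted p under 0.05, 14 of them differed from MEF in each comparison. That rule was passed by 51.8% of all genes in iPS and 52.8% in R1 arrays, and by 68.2% and 69.5% of genes with a mean signal of 50 or more. At the adjusted p without the minimum difference, limma placed 11 erasers higher and 3 lower. Of the 29 writers 3 rose and 3 fell in iPS arrays, and 5 rose and 4 fell in R1 arrays.

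**Figure D1:**
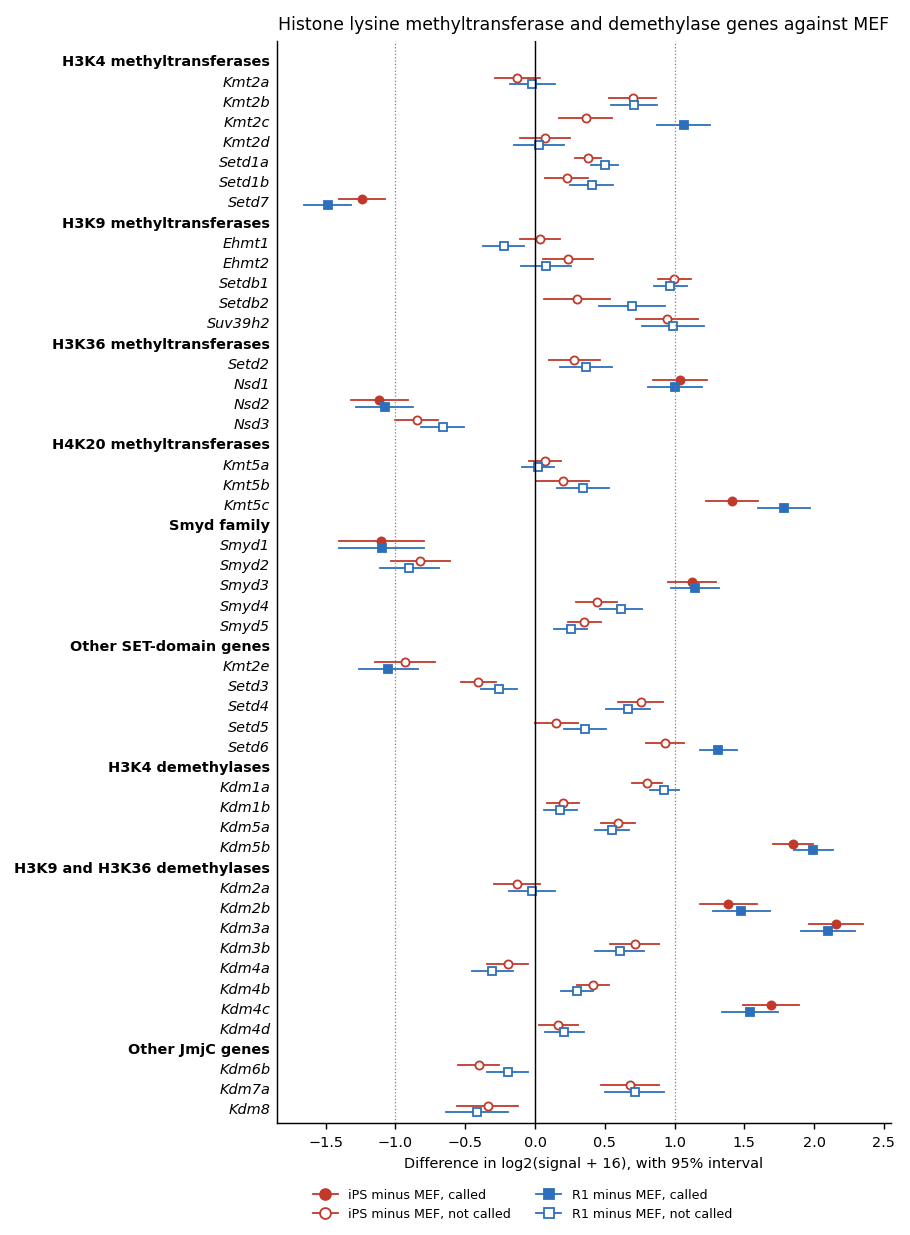
Differences of the 44 members from MEF, in log2(signal + 16), with 95% intervals. Red circles are iPS minus MEF and blue squares R1 minus MEF, filled symbols are called genes, and dotted lines mark a difference of 1. Kdm3a and Kdm5b lie farthest to the right, and Setd7 farthest to the left.

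**Figure D2:**
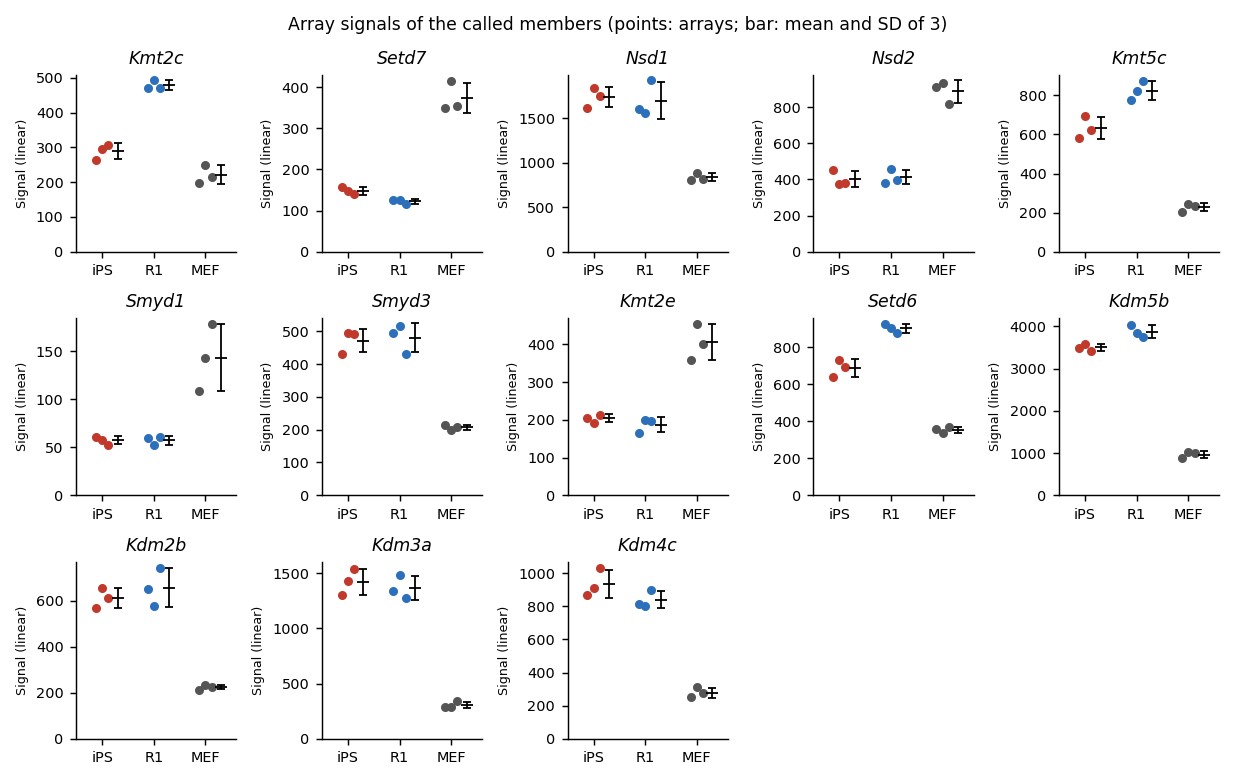
Linear signal of the 13 members called in iPS or R1 against MEF, with 1 point per array and the mean and SD of 3 arrays beside it. The iPS and R1 points lie on the same side of the MEF points in every panel, and in the Kmt2c panel the iPS points lie nearer to MEF than to R1.

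Among the erasers, Kdm3a, a JmjC enzyme that removes mono- and dimethyl marks from H3K9 and is known from mouse embryonic stem cells as a gene bound by Oct4, showed the largest increase. Its signal was 1305, 1428 and 1541 in iPS arrays and 1342, 1489 and 1278 in R1 arrays, against 292, 290.0 and 340.1 in MEF arrays. Every iPS and R1 array lay above every MEF array, and the iPS and R1 arrays overlapped. The difference from MEF was 2.16 ± 0.09 (SE, adjusted p = 3.45e-08) in iPS arrays and 2.10 ± 0.09 (SE, adjusted p = 3.46e-08) in R1 arrays, that is 4.46-fold and 4.29-fold on the scale with the pseudocount. Its relative Kdm3b, with the same substrate, had signals of 1448, 1479 and 1193 in iPS arrays and 1226, 1278 and 1296 in R1 arrays, against 798, 826 and 855 in MEF arrays. The iPS and R1 arrays overlapped each other and lay above all MEF arrays, but the differences of 0.72 ± 0.08 and 0.61 ± 0.08 were below the minimum for a call.

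Kdm4c belongs to the erasers of trimethylated H3K9 and H3K36 and is likewise known as an Oct4-bound gene of mouse embryonic stem cells. Its signal was 867, 910.2 and 1031 in iPS arrays and 815, 803 and 898 in R1 arrays, against 251, 311 and 274 in MEF arrays. It rose by 1.69 ± 0.09 (SE, adjusted p = 1.84e-07) in iPS arrays and by 1.54 ± 0.09 (SE, adjusted p = 3.00e-07) in R1 arrays, with the iPS and R1 arrays overlapping each other and not MEF. Of the 2 annotated starts of Kdm4c, one window held 2 E-box matches and 28 CG dinucleotides and the other held 0 of both. The other Kdm4 members were not called. Kdm4b, which acts on H3K9, differed from MEF by 0.42 ± 0.05 in iPS and 0.30 ± 0.05 in R1 arrays, Kdm4a by -0.20 ± 0.07 and -0.31 ± 0.07, and Kdm4d, a testis gene, by 0.17 ± 0.06 and 0.21 ± 0.06. Kdm4d had signals between 31.1 and 43.4 on all arrays, where dim signals and background cannot be told apart.

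Kdm2b removes methyl groups from H3K36 and brings a Polycomb complex to unmethylated CG-rich promoters. Its signal was 568, 657 and 613 in iPS arrays and 653, 576 and 744 in R1 arrays, against 214, 234 and 226 in MEF arrays. The MEF arrays were the lowest without overlap, and the increase was 1.38 ± 0.09 (SE, adjusted p = 7.85e-07) in iPS and 1.48 ± 0.09 (SE, adjusted p = 4.49e-07) in R1 arrays. Its paralogue Kdm2a, with the same activity, had 526, 572 and 609 in iPS arrays and 613, 626 and 600.5 in R1 arrays, against 584, 689.8 and 600.5 in MEF arrays, so that all groups overlapped. Its differences from MEF were -0.13 ± 0.07 (adjusted p = 0.186 by limma) and -0.023 ± 0.07 (adjusted p = 0.84 by limma).

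Of the H3K4 erasers, Kdm5b, which removes trimethyl and dimethyl marks and is known for its high level in embryonic stem cells, rose most. Its signal was 3492, 3591 and 3421 in iPS arrays and 4039.6, 3848 and 3743 in R1 arrays, against 873, 1024 and 989 in MEF arrays. The iPS arrays all lay below the R1 arrays and both lay above MEF. The increase was 1.85 ± 0.06 (SE, adjusted p = 1.42e-08) in iPS and 1.9954 ± 0.06 (SE, adjusted p = 7.46e-09) in R1 arrays. Its relative Kdm5a differed from MEF by 0.59 ± 0.05 in iPS and 0.55 ± 0.05 in R1 arrays. Kdm1a, the flavin enzyme LSD1 of the CoREST complex, had 1965, 1992 and 2006 in iPS arrays and 2135, 2257 and 2120.2 in R1 arrays, against 1082, 1160.1 and 1160.1 in MEF arrays. No array of Kdm1a overlapped between the pluripotent lines and MEF, and its differences of 0.80 ± 0.05 and 0.93 ± 0.05 stayed below the minimum of 1. Kdm1b, known from oocytes, differed by 0.20 ± 0.05 and 0.18 ± 0.05.

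The remaining erasers were lower or moderately higher in the pluripotent lines. Kdm6b, the H3K27 demethylase JMJD3, had 349.7, 388 and 347 in iPS arrays and 410.1, 443 and 407 in R1 arrays, against 481, 455 and 516 in MEF arrays. The R1 and iPS arrays all lay below the MEF arrays, with differences of -0.40 ± 0.06 in iPS and -0.20 ± 0.06 in R1 arrays that were not called. Kdm8, a JmjC protein that is known as a hydroxylase, differed by -0.34 ± 0.10 and -0.42 ± 0.10. Kdm7a, an eraser of dimethylated H3K9 and H3K27, differed by 0.68 ± 0.09 and 0.71 ± 0.09. None of these 3 was called.

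Among the H3K4 writers, Setd7 fell in both lines. This enzyme monomethylates H3K4 and several proteins that are not histones. Its signal was 158, 148 and 139 in iPS arrays and 125, 126 and 116 in R1 arrays, against 349.7, 416 and 355 in MEF arrays. The iPS arrays lay above the R1 arrays and both lay below all MEF arrays. The difference from MEF was -1.24 ± 0.07 (SE, adjusted p = 4.05e-07) in iPS and -1.49 ± 0.07 (SE, adjusted p = 1.08e-07) in R1 arrays, so that MEF signals were 2.37 and 2.80 times as high on the scale with the pseudocount.

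Kmt2c, which monomethylates H3K4 at enhancers, separated the pluripotent lines. Its signal was 263, 296 and 307 in iPS arrays and 471, 495 and 471 in R1 arrays, against 198, 251 and 215 in MEF arrays. The 3 groups did not overlap, and the R1 arrays were highest. It rose in R1 arrays by 1.07 ± 0.08 (SE, adjusted p = 2.73e-06), while the difference of 0.36 ± 0.08 (SE, adjusted p = 0.00466) in iPS arrays was under the minimum for a call. The call in R1 arrays was lost at 0.99 without MEF replicate 1.

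The other H3K4 writers were not called. Kmt2b, which trimethylates H3K4 at CG-rich promoters, differed from MEF by 0.70 ± 0.07 in iPS and 0.71 ± 0.07 in R1 arrays. Setd1a and Setd1b, which carry out much of the trimethylation of H3K4, differed by 0.38 ± 0.04 and 0.23 ± 0.07 in iPS and by 0.50 ± 0.04 and 0.41 ± 0.07 in R1 arrays. Kmt2a, known for maintaining Hox gene expression, and the enhancer enzyme Kmt2d stayed between -0.13 and 0.073 in both comparisons. Their adjusted p in limma was between 0.188 and 0.861, and their arrays overlapped between all groups.

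Of the H3K9 writers, 0 of 5 were called in either comparison, while at an unadjusted p under 0.05 limma separated 4 of 5 from MEF in each (51.8% and 52.8% of all genes). Setdb1, which silences endogenous retroviruses in mouse embryonic stem cells, had signals of 942, 1017 and 962 in iPS arrays and 923, 982 and 955 in R1 arrays, against 455, 498 and 484 in MEF arrays. Its differences of 0.9994 ± 0.05 (SE, adjusted p = 1.72e-07) in iPS and 0.97 ± 0.05 (SE, adjusted p = 1.81e-07) in R1 arrays fell just short of the minimum of 1. In iPS arrays Setdb1 passed it with a pseudocount of 1 (1.02), with quantile normalization (1.02) and without iPS replicate 1 (1.02), iPS replicate 3 (1.01), MEF replicate 2 (1.03) or MEF replicate 3 (1.01).

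Suv39h2, which trimethylates H3K9 in heterochromatin around centromeres, was similar. Its signal was 343, 300.2 and 352 in iPS arrays and 349.7, 362 and 313 in R1 arrays, against 143, 189 and 163 in MEF arrays, and its differences were 0.95 ± 0.10 (SE, adjusted p = 2.20e-05) and 0.99 ± 0.10 (SE, adjusted p = 1.51e-05). It passed the minimum with a pseudocount of 1 in iPS (1.01) and in R1 arrays (1.05), and also without MEF replicate 2 (1.04 and 1.08), without iPS replicate 2 (1.01) and without R1 replicate 3 (1.05). Ehmt1 and Ehmt2, which form the GLP and G9a pair that dimethylates H3K9, differed by 0.035 ± 0.06 and 0.24 ± 0.08 in iPS and by -0.22 ± 0.06 and 0.081 ± 0.08 in R1 arrays. Setdb2 differed by 0.30 ± 0.11 in iPS and by 0.69 ± 0.11 in R1 arrays.

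Among the 4 H3K36 writers, Nsd1 rose and Nsd2 fell in both pluripotent lines. Nsd1 dimethylates H3K36 and had signals of 1618, 1846 and 1758 in iPS arrays and 1607, 1563 and 1938 in R1 arrays, against 803, 891 and 820.3 in MEF arrays. All pluripotent arrays lay above all MEF arrays, and the increase was 1.04 ± 0.09 (SE, adjusted p = 4.60e-06) in iPS and 1.0030 ± 0.09 (SE, adjusted p = 5.52e-06) in R1 arrays. These values sit at the minimum, and the call was lost in iPS arrays without iPS replicate 2 (0.996). In R1 arrays it was lost with quantile normalization (0.99) and without R1 replicate 3 (0.91), MEF replicate 1 (0.97) or MEF replicate 3 (0.99).

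Nsd2, which carries the same dimethylating activity, had 452, 375 and 377 in iPS arrays and 383, 455 and 399 in R1 arrays, against 910.2, 936 and 815 in MEF arrays. All pluripotent arrays lay below all MEF arrays, and the difference was -1.12 ± 0.09 (SE, adjusted p = 3.90e-06) in iPS and -1.08 ± 0.09 (SE, adjusted p = 4.65e-06) in R1 arrays. The third family member, Nsd3, had 242, 271 and 276 in iPS arrays and 282, 329 and 294 in R1 arrays, against 465, 498 and 495 in MEF arrays, with differences of -0.85 ± 0.07 and -0.66 ± 0.07 that were not called. Setd2, which trimethylates H3K36 along transcribed genes, differed by 0.28 ± 0.08 and 0.37 ± 0.08.

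Of the H4K20 writers, Kmt5c, which trimethylates H4K20 in compacted chromatin, showed the largest increase of all writers. Its signal was 584, 695 and 622 in iPS arrays and 776, 820.3 and 873 in R1 arrays, against 205, 246 and 232 in MEF arrays. The groups did not overlap, and R1 arrays were highest. The increase was 1.41 ± 0.08 (SE, adjusted p = 3.74e-07) in iPS and 1.79 ± 0.08 (SE, adjusted p = 7.11e-08) in R1 arrays. Its paralogue Kmt5b differed by 0.20 ± 0.08 in iPS and 0.34 ± 0.08 in R1 arrays, neither called. Kmt5a, the monomethylating enzyme of the cell cycle, had 1089.9, 1082 and 1024 in iPS arrays and 1082, 976 and 1024 in R1 arrays, against 1024, 996 and 1017 in MEF arrays, with overlapping groups and differences of 0.072 ± 0.05 and 0.020 ± 0.05.

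Among the 5 Smyd genes, Smyd3 rose and Smyd1 fell in both lines. Smyd3, which methylates a MAP kinase kinase kinase and histones, had 431, 495 and 491 in iPS arrays and 495, 516 and 431 in R1 arrays, against 214, 199 and 209 in MEF arrays. It rose by 1.12 ± 0.08 (SE, adjusted p = 1.09e-06) in iPS and by 1.15 ± 0.08 (SE, adjusted p = 8.69e-07) in R1 arrays, with no overlap with MEF. Smyd2, which methylates p53 among other proteins, had 267, 302 and 322 in iPS arrays and 249, 322 and 272 in R1 arrays, against 526, 560.3 and 523 in MEF arrays. Its differences of -0.82 ± 0.09 in iPS and -0.90 ± 0.09 in R1 arrays were not called, although the arrays did not overlap with MEF. Smyd4 differed by 0.44 ± 0.07 and 0.61 ± 0.07, and Smyd5 by 0.35 ± 0.05 and 0.26 ± 0.05.

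Smyd1 is a gene of heart and skeletal muscle that is needed to build sarcomeres. Its signal was 61.0, 58.1 and 52.7 in iPS arrays and 59.7, 52.0 and 60.5 in R1 arrays, against 109, 143 and 179 in MEF arrays. The MEF arrays were the highest, with the widest spread of any group, and the iPS and R1 arrays overlapped. The difference from MEF was -1.10 ± 0.14 (SE, adjusted p = 7.15e-05) in iPS and -1.10 ± 0.14 (SE, adjusted p = 7.00e-05) in R1 arrays, and it fell short of the minimum without MEF replicate 3 (-0.95 in iPS and -0.94 in R1 arrays).

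Several skeletal-muscle markers were lower in the pluripotent lines than in MEF, as Smyd1 was. Of 12 such markers, 7 fell and 0 rose in iPS arrays, where 7.58% of all genes fell and 5.08% rose. In R1 arrays 8 fell and 0 rose, beside 7.94% and 5.56% of all genes. Embryonic myosin (Myh3) had signals of 51.3, 50.2 and 48.5 in iPS arrays and 62.7, 53.1 and 59.3 in R1 arrays, against 405, 739 and 622 in MEF arrays, and myogenin (Myog), a transcription factor of muscle differentiation, had 61.8, 50.2 and 42.5 in iPS arrays and 57.3, 44.9 and 58.9 in R1 arrays, against 244, 261 and 261 in MEF arrays. The MEF arrays were highest for both genes. Smyd1 was highest on MEF replicate 3, and so were 4 of the 12 markers (Myod1, Actc1, Tnnt1 and Tnnt3). A further 4 were highest on MEF replicate 2 (Myh3, Myh8, Acta1 and Ttn), 3 on MEF replicate 1 (Myf5, Myf6 and Ckm), and Myog was tied. The muscle markers Myf5, Myf6 and Ckm had signals of 14.1 to 94.4 over the 9 arrays and were not called. Myh8 was called in neither line (-0.51 ± 0.10 in iPS and -0.57 ± 0.10 in R1 arrays). Tnnt3 was not called in iPS arrays (-0.99 ± 0.11). The part of muscle cells in the difference of Smyd1 was not tested.

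**Figure D3:**
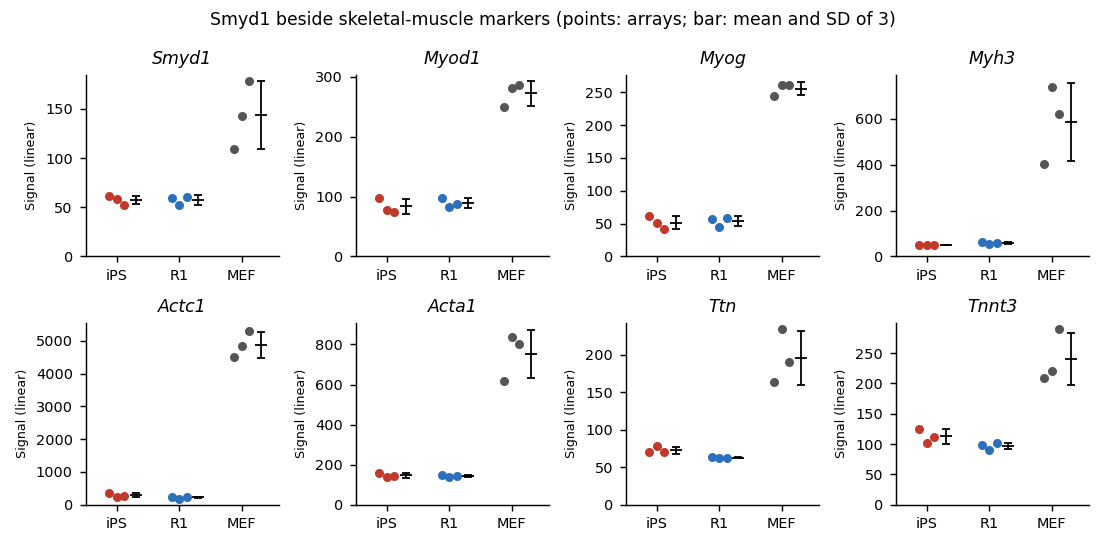
Linear signal of Smyd1 and of 7 of the 12 skeletal-muscle markers, with 1 point per array and the mean and SD of 3 arrays per group. The 7 shown were each called lower than MEF in at least 1 line, and uncalled markers such as Myf5, Myf6 and Ckm are not shown. In each panel the MEF arrays lie above all iPS and R1 arrays, and Smyd1 and Myh3 have a wide spread among the MEF arrays.

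Of the other SET-domain genes, Setd6, which methylates the NF-kappaB subunit RelA, had 639, 734 and 695 in iPS arrays and 929, 904 and 879 in R1 arrays, against 359.5, 335 and 367 in MEF arrays. The groups did not overlap. It rose in R1 arrays by 1.31 ± 0.06 (SE, adjusted p = 6.55e-08), and the difference of 0.93 ± 0.06 (SE, adjusted p = 7.32e-07) in iPS arrays was under the minimum for a call. Kmt2e, a SET-domain protein without a known methyltransferase activity, had 205, 193 and 214 in iPS arrays and 164, 199 and 198 in R1 arrays, against 359.5, 455 and 402 in MEF arrays. It fell in R1 arrays, with a difference of -1.05 ± 0.09 (SE, adjusted p = 7.41e-06), and differed in iPS arrays by -0.93 ± 0.09 (SE, adjusted p = 1.84e-05), which was not called.

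The calls of Kmt2e lay close to the minimum. Without R1 replicate 1 or MEF replicate 2 its difference in R1 arrays was -0.97 each time, and without MEF replicate 1 it was called in iPS arrays (-1.01). Setd4 differed from MEF by 0.76 ± 0.07 in iPS and 0.67 ± 0.07 in R1 arrays. Setd3, which methylates a histidine of actin, differed by -0.41 ± 0.06 and -0.26 ± 0.06, and Setd5, a chromatin protein linked to a histone deacetylase complex, by 0.15 ± 0.07 and 0.36 ± 0.07.

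For the 5 members with a second probe set, both probe sets gave differences from MEF of the same sign, except Kmt2d, where the second gave -0.0063 in iPS and -0.03 in R1 arrays beside 0.07 and 0.03. For Setd1b the second probe set gave 0.62 against 0.41 in R1 arrays, and for Kdm7a 0.81 against 0.71.

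The contrast between iPS and R1 arrays sets reprogrammed cells beside embryonic stem cells, and it is also the test of whether the 2 differences from MEF were unequal. None of the 44 members was called (0 higher and 0 lower, against 0.461% of all genes and 0.631% of those with a mean signal of 50 or more), and 16 passed an unadjusted p of 0.05 in limma, a rule that 20.6% of all genes and 27.8% of those with a mean signal of 50 or more passed. Without the minimum difference, 4 members (9.09%) passed an adjusted p of 0.05, 1 as higher (4.12% of all genes) and 3 as lower (4.40% of all genes). The share is close to the 8.52% of all genes and the 11.8% of genes with a mean signal of 50 or more. The median of the 44 absolute differences was 0.11, beside 0.07 over all genes. The latter value includes dim genes, whose differences the pseudocount understates, and was not taken over brighter genes alone.

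Kmt2c differed most. Its mean signal was 289 ± 23 in iPS and 479 ± 14 in R1 arrays (SD, n = 3 each), a difference of -0.70 ± 0.08 (SE, adjusted p = 0.00125) with a 95% interval of -0.89 to -0.51. This adjusted p stayed under 0.05 in all 12 alternatives, with differences between -0.75 and -0.64. Setd6 averaged 689 ± 48 in iPS and 904 ± 25 in R1 arrays (SD, n = 3 each), a difference of -0.39 ± 0.06 (SE, adjusted p = 0.00501) that also passed in 12 of 12 alternatives. Both genes were lower in every iPS array than in any R1 array.

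Kmt5c averaged 633 ± 56 in iPS and 823 ± 49 in R1 arrays (SD, n = 3 each), a difference of -0.37 ± 0.08 (SE, adjusted p = 0.0241). Its adjusted p was above 0.05 without iPS replicate 1 (0.075), iPS replicate 3 (0.0694), R1 replicate 2 (0.0608) or R1 replicate 3 (0.0858). Ehmt1 was the only member that passed as higher, with 437, 461 and 468 in iPS and 359.5, 365 and 410.1 in R1 arrays and a difference of 0.26 ± 0.06 (SE, adjusted p = 0.0384). It missed the threshold in 6 of 12 alternatives, with an adjusted p up to 0.137, namely with a pseudocount of 1 and without any of the 3 iPS arrays, R1 replicate 1 or R1 replicate 2.

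Setdb2 and Setd7 completed the 6 largest differences. Setdb2 had 97.0, 119 and 119 in iPS and 129.8, 162 and 164 in R1 arrays, a difference of -0.39 ± 0.11 (SE, adjusted p = 0.0505), and it passed with dim genes left out (0.0306), quantile normalization (0.0453), the intensity trend (0.0461), the replicate block (0.0142) or without R1 replicate 1 (0.0302). Setd7 differed by 0.24 ± 0.07 (SE, adjusted p = 0.0788), with no overlap between iPS and R1 arrays, and passed with quantile normalization (0.0462). Setd1b also passed with the mean of all probe sets (adjusted p = 0.0418 in limma). So did Ehmt2 without iPS replicate 1 (0.0393) and Kmt5b without R1 replicate 3 (0.0313). For the 40 members that did not pass in the main fit, the 95% intervals reached from -0.63 (Setdb2) to 0.41 (Setd7). Kdm3a and Kdm5b, the most increased erasers, differed by 0.056 ± 0.09 (95% interval -0.14 to 0.25) and -0.15 ± 0.06 (95% interval -0.29 to -0.0034), with adjusted p = 0.836 and adjusted p = 0.229 in limma.

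Markers differed between iPS and R1 arrays as well. Of the 8 pluripotency markers Zfp42 was called lower, with a mean signal of 506 ± 55 in iPS and 3539 ± 257 in R1 arrays (SD, n = 3 each) and a difference of -2.77 ± 0.11, and Esrrb passed the adjusted p as lower (-0.50 ± 0.12). Of the 4 germ-cell markers Sycp3 was called lower (-1.2457 ± 0.15). The 8 fibroblast markers had a median difference of 0.47 with 0 called, and Col1a1 (0.67 ± 0.15) and Prrx1 (0.53 ± 0.12) passed the adjusted p as higher. Of the 5 macrophage markers Itgam passed as lower (-0.18 ± 0.04), and none of the muscle, endothelial or proliferation markers passed it. Itgam signals were 30.9 to 39.7 on all arrays, where dim signals and background cannot be told apart. Whether these markers reflect other cells in the cultures was not tested, nor was any part of such cells in the differences of the members.

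**Figure D4:**
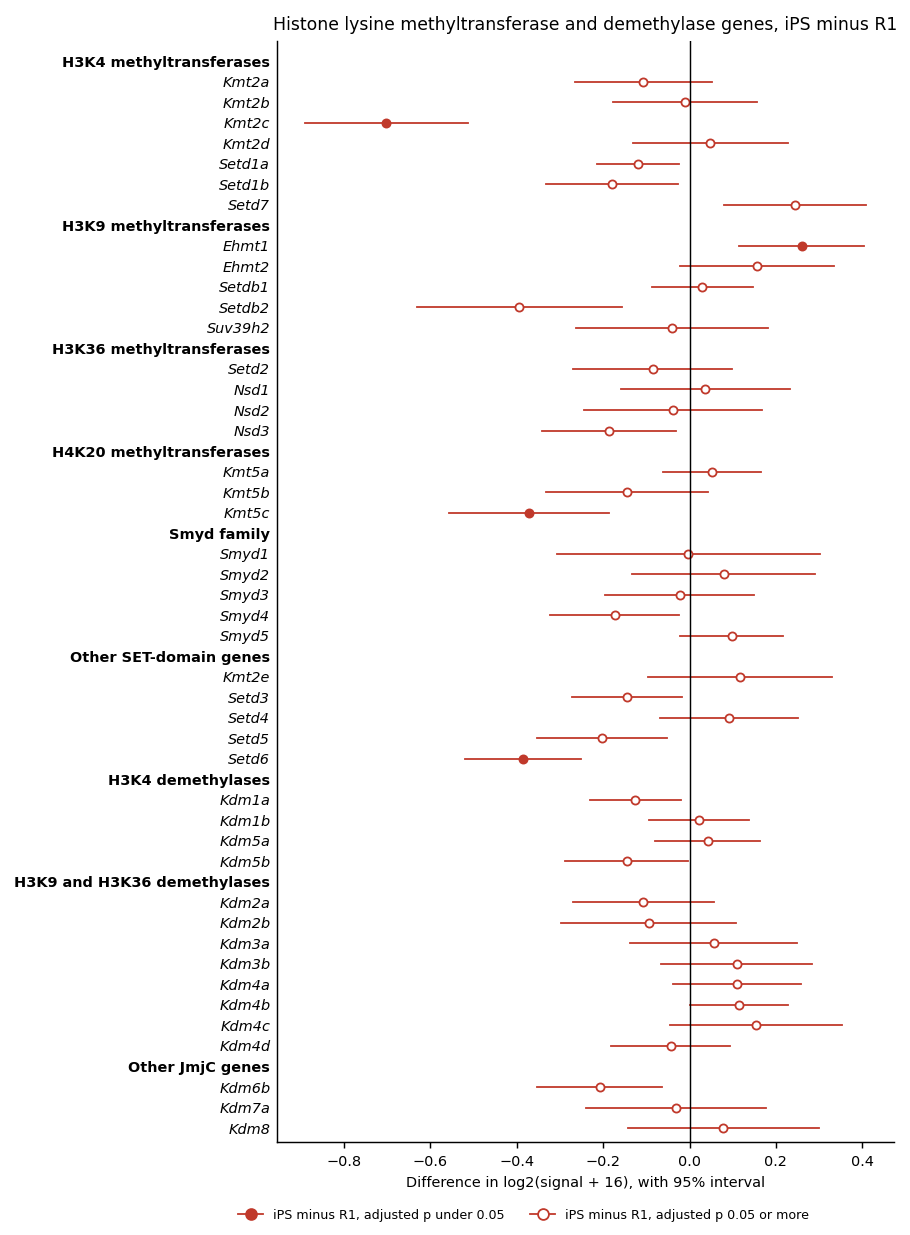
Differences between iPS and R1 arrays for the 44 members, in log2(signal + 16), with 95% intervals. Filled symbols passed an adjusted p of 0.05, and Kmt2c, at -0.70, lies farthest from 0.

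Enzymes outside the naming rule and partner proteins were taken as a further list of 43 genes, of which 42 were measured. Of these 9 rose and 2 fell in iPS arrays relative to MEF, and 10 rose and 2 fell in R1 arrays. For comparison, 5.08% of the 19938 genes rose and 7.58% fell in iPS arrays. The shares for R1 arrays were 5.56% and 7.94%. They are also the background for the smaller lists below. The median difference of the 42 genes was 0.30 in iPS and 0.36 in R1 arrays, beside 0.02 over all genes. Only Ash1l had no probe set under its symbol alone and was not analysed here.

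Of the 5 partners of Kdm1a, 1 rose and 0 fell in each comparison with MEF. Rcor2, a CoREST protein that binds Kdm1a and is known from embryonic stem cells, had 1361, 1389 and 1351 in iPS arrays and 1152, 1209 and 1168 in R1 arrays, against 98.4, 135 and 103 in MEF arrays. It rose by 3.44 ± 0.09 (SE, adjusted p = 3.54e-09) in iPS and by 3.23 ± 0.09 (SE, adjusted p = 4.52e-09) in R1 arrays, the largest increase in the list. Its paralogues Rcor1 (-0.81 ± 0.07 and -0.77 ± 0.07) and Rcor3 (-0.94 ± 0.06 and -0.93 ± 0.06) had differences below 0 and were not called. The other 2 partners, the deacetylases Hdac1 and Hdac2, were not called either.

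Subunits that the H3K4 writers share lay higher in the pluripotent lines. Wdr5 rose by 1.12 ± 0.07 in iPS and 1.62 ± 0.07 in R1 arrays, Ash2l by 1.06 ± 0.10 and 1.30 ± 0.10, and Dpy30 by 1.4041 ± 0.07 and 1.64 ± 0.07. Rbbp5, the remaining core subunit, rose in R1 arrays (1.05 ± 0.05) and differed by 0.99 ± 0.05 in iPS arrays without being called. Ash2l was not called in iPS arrays without iPS replicate 2 (0.97), and Rbbp5 was called there with a pseudocount of 1 (1.02), with quantile normalization (1.01) and without MEF replicate 2 (1.02). Of the 12 partners of H3K4 writers, 3 rose and 0 fell in iPS arrays and 4 rose and 0 fell in R1 arrays. The partners Ncoa6 (-0.84 ± 0.10 and -0.78 ± 0.10) and Men1 (-0.24 ± 0.07 and -0.31 ± 0.07) had differences below 0 in both lines and were not called. Wdr5 was lower in iPS than in R1 arrays, with a difference of -0.51 ± 0.07 (SE, adjusted p = 0.00317) below the minimum for a call. Hdac2, with a difference of 0.49 ± 0.05 (SE, adjusted p = 4.06e-04), and the G9a partner Wiz, with 0.34 ± 0.06 (SE, adjusted p = 0.00757), were higher in iPS than in R1 arrays, likewise below that minimum.

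Trim28, the corepressor that brings Setdb1 to retroviral sequences, was the only one of 6 H3K9 partners and readers that rose, by 1.27 ± 0.05 in iPS and 1.2514 ± 0.05 in R1 arrays. Among 19 other enzymes of the list 4 rose and 2 fell in each comparison with MEF. Mecom, a PR-domain factor, fell with differences of -2.18 ± 0.05 in iPS and -2.25 ± 0.05 in R1 arrays, and so did Phf2, a JmjC protein linked to H3K9 demethylation, with -1.55 ± 0.05 and -1.58 ± 0.05. Jmjd1c, the closest relative of Kdm3a and Kdm3b, rose by 1.35 ± 0.08 and 1.13 ± 0.08. Prdm14, a PR-domain factor of pluripotent and germ cells, rose by 1.69 ± 0.15 and 1.68 ± 0.15, and Ezh1, an H3K27 writer of Polycomb, by 1.20 ± 0.09 and 1.16 ± 0.09. Its relative Ezh2 differed by 0.94 ± 0.04 and 0.85 ± 0.04 without being called. The Y-linked Uty rose by 2.55 ± 0.09 and 1.16 ± 0.09, and it was the only gene of the list called between iPS and R1 arrays (1.39 ± 0.09, against 0.296% of all genes called higher there). The labels used here do not give the sex of the cells, and its part was not tested.

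**Figure D5:**
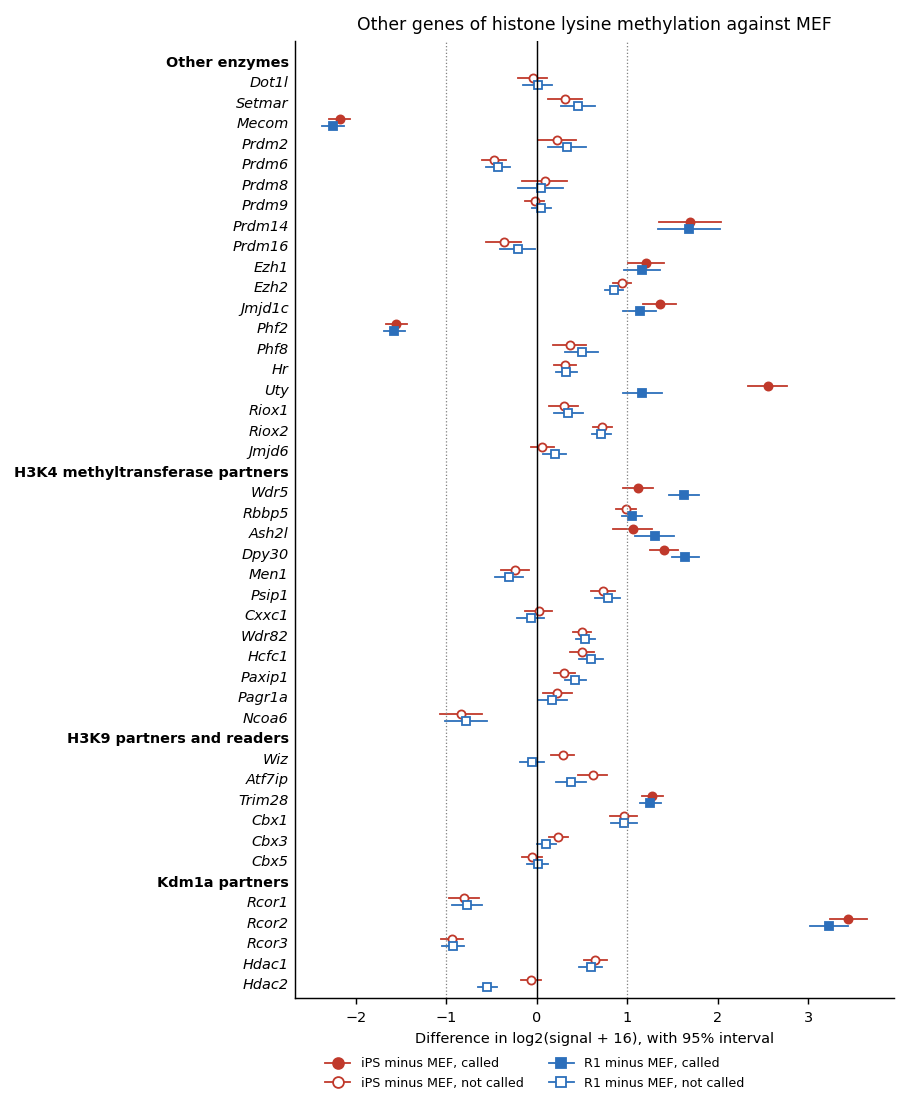
Differences from MEF of 42 further genes of histone lysine methylation, in log2(signal + 16), with 95% intervals. Red circles are iPS minus MEF, blue squares R1 minus MEF, and filled symbols are called. Rcor2 lies farthest to the right and Mecom farthest to the left.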

How the data were processed

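The authors deposited an intensity on a linear scale for each probe set of an array. GCOS 1.4 appears in the submitters' processing notes with no stated role, and how signals were corrected, summarized and normalized is not given in the sources used here. Array medians lay between 78.2 and 83.3, so the deposited values were not normalized again. Detection calls were not used, and the 3 arrays per group limit the precision. Of 35557 probe sets, 21789 had 1 gene symbol, 1621 several and 12147 none in the platform annotation. The probe set with the highest mean stood for each gene, which gave 19938 genes. Symbols were looked up in a RefSeq table of GRCm38.p6, which changed 0 of them.

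All 9 arrays entered 1 limma fit (limma 3.58.1, R 4.3.3; lmFit and eBayes) of log2(signal + 16) with a mean per group and 6 residual degrees of freedom. Benjamini-Hochberg adjustment covered all 19938 genes. The pseudocount understates differences of dim genes. The procedure was tested on simulated data. Members and gene lists were chosen with earlier results of these data known. Values per array are given for members called in any comparison and for the 6 largest differences between iPS and R1, and for a few other genes, to compare relatives within a family, chosen after their values were seen. Alternatives changed the pseudocount, the normalization, a cutoff for dim genes, the way several probe sets were merged, the minimum difference, the intensity trend of the prior, the replicate block and the arrays left in.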

Additional observations from a re-analysis of the deposited data

Results flagged for a closer look

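The change relative to MEF differed between iPS and R1 cells, by the test of the difference itself (limma, adjusted p under 0.05 over all genes), for 4 of the 44 members. The difference, iPS minus R1, was -0.70 for the enhancer H3K4 writer Kmt2c, -0.39 for Setd6, -0.37 for the H4K20 writer Kmt5c and 0.26 for the H3K9 writer Ehmt1. Kmt2c and Setd6 were lower on all iPS arrays than on any R1 array, as was Kmt5c, and Ehmt1 was higher on all iPS arrays. The adjusted p stayed under 0.05 in 12 of 12 alternatives for Kmt2c and Setd6, in 8 for Kmt5c and in 6 for Ehmt1. The share of 9.09% is near the 8.52% of all genes and the 11.8% of genes with a mean signal of 50 or more. With 3 arrays per group, single arrays were not tested as outliers.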

How the results depend on the processing

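The counts of called members kept within 1.5 times their size under every alternative but the removal of the minimum difference. That removal gave 27 higher and 10 lower members in iPS against MEF, 28 and 11 in R1 against MEF, and 1 and 3 in iPS against R1. Fits without 1 array gave 7 to 9 higher and 2 to 4 lower members in iPS against MEF, 7 to 10 higher and 3 to 4 lower in R1 against MEF, and 0 in each direction in iPS against R1. With the replicate block the counts were 7 and 3, 9 and 4, and 0 and 0, the same as without it. Same-numbered arrays deviated from their group means with correlations of -0.08 to 0.24 across genes. Those of replicate 1 were 0.24 for iPS with R1, 0.23 for iPS with MEF and 0.21 for R1 with MEF. The labels do not say that a number marks a shared batch, so the numbers were not taken to pair the samples. Among 2181 alternative values of single genes, 0 were counted as reversed. A reversal was counted only where a gene was called in the main fit or in the alternative, so many of these values could not count. A pseudocount of 1 gave 9 higher members in iPS and 10 in R1 against MEF, and quantile normalization 8 in each. The calls lost without 1 array are those of Nsd1, Smyd1, Kmt2e, Kmt2c and the partner Ash2l, with the values given beside them.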
